A study of Mus musculus with 8 samples.

Results

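The genes described here are 10 transcripts tied to the tumour suppressor p53 and to the stress and senescence programme around it, namely Trp53, which encodes p53 itself, and Cdkn1a, Mdm2, Ccng1, Trp53inp1, Sesn2, Gdf15, Phlda3, Eda2r and Bax. They were chosen by gene symbol, with earlier results of these data known. Symbols were matched through the Ensembl gene identifier to the 52636 genes of the liver count tables. All 10 were found in the tables and all 10 passed the filter on low counts. Livers came from 8 wild-type C57BL/6J male mice, 4 given AAV8-GFP and 4 given AAV8-AGXT. Both are adeno-associated virus serotype 8 vectors driven by the thyroxine-binding globulin (TBG) promoter, which restricts expression to hepatocytes, and they carry green fluorescent protein or human alanine-glyoxylate aminotransferase (AGXT), the enzyme that turns glyoxylate into glycine and so limits oxalate formation. The vector was injected at 7 weeks of age, and from 8 weeks of age every mouse received the high-fat, high-cholesterol, high-fructose diet used to induce metabolic dysfunction-associated steatohepatitis (MASH) for 24 weeks, so both groups carried a vector and had the diet, and livers of chow-fed mice are not analysed here. The comparison asks how hepatocyte expression of AGXT during MASH is accompanied by changes in these transcripts in whole liver RNA, with 1 library per mouse.

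p53 is a transcription factor that is held at low levels by the ubiquitin ligase encoded by Mdm2, which is itself a p53 target, so the pair forms a negative feedback loop. DNA damage, oxidative stress and other insults stabilise p53, mostly through the protein and not through its mRNA, and the factor then raises genes of cell cycle arrest, apoptosis, antioxidant defence and secreted stress signals. In the liver, p53 and its target p21 (Cdkn1a) are known for their part in hepatocyte stress, in the arrest of damaged hepatocytes and in senescence during chronic injury. Several of the genes also answer to other regulators, Sesn2 and Gdf15 in particular to the integrated stress response.

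p53 binds a response element made of adjacent copies of a 10-base decamer known as the p53 half-site consensus. RefSeq promoter windows of GRCm38.p6, covering 250 bases before and 50 bases after an annotated gene start, were searched for this decamer, whose consensus reads the same on both strands. Windows were found for 9 of the 10 genes, 11 windows in all, and none was given for Trp53inp1. An exact decamer lay in 5 of the 11 windows and in 8.36% of all 32851 windows, and an adjacent pair with at most 2 mismatches in all and intact core bases lay in 1 of the 11 and in 0.158% of all windows. The windows of Ccng1, Mdm2, Trp53, Bax and the upstream start of Cdkn1a held an exact decamer, whereas those of Phlda3, Sesn2, Eda2r, both of Gdf15 and the second start of Cdkn1a held none. The pair was at the upstream start of Cdkn1a, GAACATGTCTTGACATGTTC, with 1 mismatch and its first base 51 bases before the start. The 250 bases before the start are shown for the 4 genes that were lower in AAV8-AGXT livers and for Mdm2, which was not called, with matches to the decamer or the pair in capitals, at chr17:29090729-29090978 (Cdkn1a, plus strand), chr11:69580109-69580358 (Trp53, plus strand), chr1:135765835-135766084 (Phlda3, plus strand), chr7:45466899-45467148 (Bax, minus strand) and chr10:117710759-117711008 (Mdm2, minus strand) in that order.
Cdkn1a: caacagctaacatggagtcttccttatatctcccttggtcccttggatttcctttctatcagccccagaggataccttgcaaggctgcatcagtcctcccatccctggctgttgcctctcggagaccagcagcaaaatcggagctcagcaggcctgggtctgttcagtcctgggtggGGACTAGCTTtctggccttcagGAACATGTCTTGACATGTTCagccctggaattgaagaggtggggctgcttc
Trp53: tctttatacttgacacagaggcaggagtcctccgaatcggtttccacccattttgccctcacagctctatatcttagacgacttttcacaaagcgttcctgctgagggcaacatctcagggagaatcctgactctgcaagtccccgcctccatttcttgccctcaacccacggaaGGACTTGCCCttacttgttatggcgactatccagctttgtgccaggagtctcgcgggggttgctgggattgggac
Phlda3: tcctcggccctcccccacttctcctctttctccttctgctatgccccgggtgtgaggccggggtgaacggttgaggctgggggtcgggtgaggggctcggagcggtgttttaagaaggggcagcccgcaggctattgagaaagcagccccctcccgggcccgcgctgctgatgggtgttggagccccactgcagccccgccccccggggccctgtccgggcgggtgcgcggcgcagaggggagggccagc
Bax: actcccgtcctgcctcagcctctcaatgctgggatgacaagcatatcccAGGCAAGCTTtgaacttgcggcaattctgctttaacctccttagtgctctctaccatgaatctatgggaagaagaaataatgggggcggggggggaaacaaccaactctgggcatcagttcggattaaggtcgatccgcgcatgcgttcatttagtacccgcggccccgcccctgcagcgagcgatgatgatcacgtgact
Mdm2: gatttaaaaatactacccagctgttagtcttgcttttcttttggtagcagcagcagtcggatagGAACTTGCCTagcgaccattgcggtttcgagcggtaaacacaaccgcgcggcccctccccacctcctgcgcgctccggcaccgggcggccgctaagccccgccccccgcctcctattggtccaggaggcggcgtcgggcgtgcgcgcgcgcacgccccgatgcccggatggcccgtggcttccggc
Phlda3 had no match in the letters shown, and its fall was the deepest of the 10. Mdm2 had a match, and its groups overlapped. The searched Phlda3 window ended in GAACATGT, the letters that open the Cdkn1a decamer GAACATGTCT, so a decamer cut by its edge could not be scored. Sites outside the windows were not searched. A match describes the letters only, and the search rule was set with these sequences in view.

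All 10 genes had a lower mean in AAV8-AGXT than in AAV8-GFP livers, beside 47.7% of all tested genes with a negative log2 fold change. Cdkn1a, Trp53, Phlda3 and Bax fell past the threshold of an adjusted p under 0.05 (edgeR quasi-likelihood test, Benjamini-Hochberg adjustment over 15248 genes), and none of the 10 rose. The 4 of 10 stand beside a background of 1.9% of tested genes called lower and 2.45% called higher. The 10 genes were chosen with earlier results of these data known. This and the other shares in this paragraph are therefore a background only, and no test of the list. At an unadjusted p under 0.05 edgeR gave 4 lower and 0 higher, beside 12.6% and 13.5% of all tested genes. DESeq2 called 4 lower and 0 higher, beside 6.37% and 6.58% of the genes it gave an adjusted p. For these 4 genes every AAV8-AGXT mouse was below every AAV8-GFP mouse, an arrangement seen in 7.63% of tested genes. With library totals in place of TMM the same test gave 4 of the 10 lower and 0 higher, and 857 lower and 144 higher among all genes against 290 and 374 with TMM. The median log2 fold change of the 10 genes was -0.34, against 0.02 over all tested genes. Values are read pairs per 1000000 counted on genes (CPM), scaled by the trimmed mean of M-values (TMM), and values written with ± are the mean and SD over the mice of a group (n = 4). RNA was taken from whole liver, so fewer cells of a type and less RNA per cell cannot be told apart.

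**Figure D1:**
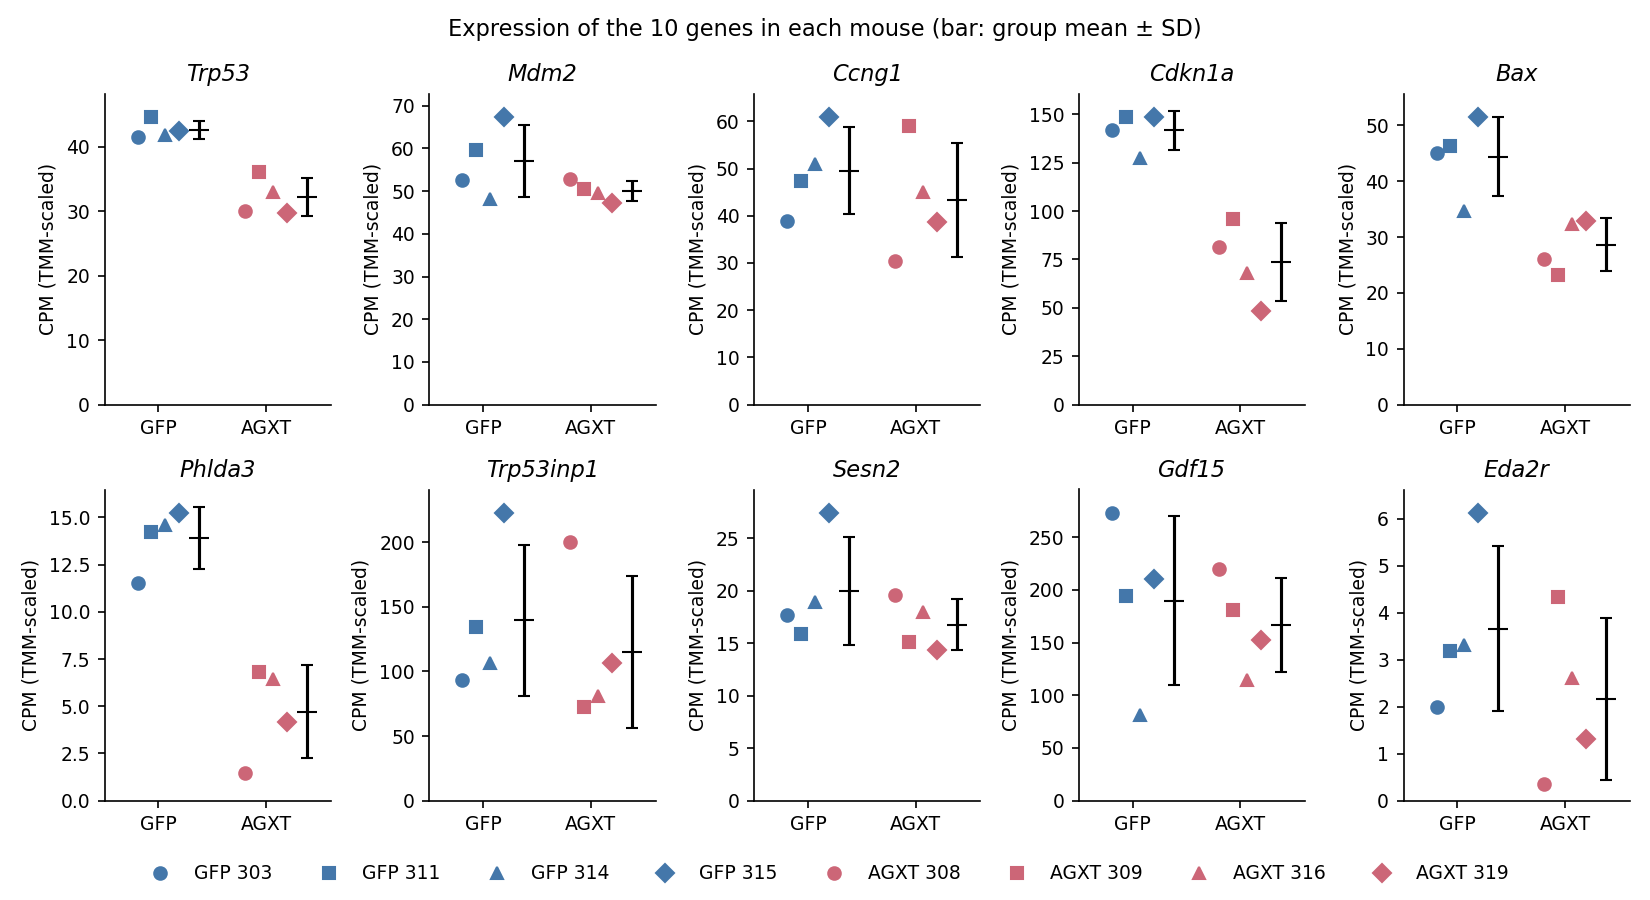
CPM of each of the 10 genes (vertical axes, linear from 0) in the 4 AAV8-GFP mice (blue) and the 4 AAV8-AGXT mice (red), 1 symbol per mouse, with the group mean ± SD at the right of each group. The groups do not overlap for Trp53, Cdkn1a, Bax and Phlda3 and overlap for the other 6 genes.

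Within the feedback loop, Trp53 fell and Mdm2 did not pass the test. Trp53 (chr11:69580359-69591873, plus strand, GRCm38) was measured at 41.5, 44.7, 41.8 and 42.5 CPM in GFP mice 303, 311, 314 and 315, and at 30.1, 36.1, 33.0 and 29.7 CPM in AGXT mice 308, 309, 316 and 319. The GFP mice lay within a narrow band, with a coefficient of variation of 3.38%, and all 4 AGXT mice were below it. The log2 fold change was -0.40 (SE 0.09, edgeR adjusted p = 0.0451, exact permutation p = 0.0286), or 0.755 of the GFP level. That permutation p is the smallest that the 70 arrangements of 8 mice can give, and it is two-sided, as are all permutation tests here. Mdm2 (chr10:117688875-117710758, minus strand) stood at 52.6, 59.7, 48.3 and 67.4 CPM in the GFP mice and at 52.8, 50.4, 49.6 and 47.3 CPM in the AGXT mice. The AGXT values were close together and inside or just under the GFP range, with a log2 fold change of -0.19 (SE 0.11, edgeR adjusted p = 0.317). Ccng1 (chr11:40748552-40755311, minus strand), encoding cyclin G1, a p53 target that acts back on Mdm2 through a phosphatase, was at 38.9, 47.4, 50.9 and 61.0 CPM in GFP mice and at 30.4, 59.1, 45.0 and 38.7 CPM in AGXT mice. AGXT mouse 309 was near the top of the GFP range and mice 308 and 319 were below it, and the log2 fold change was -0.19 (SE 0.20, edgeR adjusted p = 0.577).

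Cdkn1a (chr17:29090976-29100727, plus strand) encodes p21, the cyclin-dependent kinase inhibitor through which p53 halts the cell cycle and a widely used mark of senescent cells. It was measured at 141.9, 148.6, 127.4 and 148.8 CPM in GFP mice 303, 311, 314 and 315, and at 81.7, 96.1, 67.8 and 48.6 CPM in AGXT mice 308, 309, 316 and 319. The highest AGXT mouse remained below the lowest GFP mouse by a wide margin, and the AGXT mice differed more among themselves, with a coefficient of variation of 27.5% against 7.1%. The log2 fold change was -0.95 (SE 0.19, edgeR adjusted p = 0.0349, exact permutation p = 0.0286), so that the AGXT level was 0.519 of the GFP level. Read pairs behind these values ranged from 1029 to 4854 per mouse. An annotated gene on the opposite strand, AC167363.2, shares 273 exon bases with Cdkn1a and has no row in the tables.

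Among the genes of apoptosis, Bax and Phlda3 fell, and Trp53inp1 and Eda2r did not pass the test. Bax (chr7:45461697-45466898, minus strand) encodes the pore-forming protein of the mitochondrial outer membrane. It was at 45.1, 46.3, 34.6 and 51.6 CPM in GFP mice and at 26.2, 23.1, 32.4 and 32.9 CPM in AGXT mice. GFP mouse 314 was close to the highest AGXT mouse, so the groups were separate by a small gap only. The log2 fold change was -0.63 (SE 0.15, edgeR adjusted p = 0.0495, exact permutation p = 0.0286). A same-strand gene that shares 192 exon bases with Bax, Gm45808, had 0 counts in every mouse.

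Phlda3 (chr1:135766119-135769136, plus strand) encodes a small pleckstrin homology domain protein that is induced by p53 and restrains AKT signalling. It was at 11.5, 14.2, 14.6 and 15.3 CPM in GFP mice and at 1.45, 6.79, 6.42 and 4.15 CPM in AGXT mice. All AGXT mice were clearly under the GFP range, and mouse 308 was far under the other AGXT mice with 21 read pairs. The log2 fold change was -1.55 (SE 0.36, edgeR adjusted p = 0.0451, exact permutation p = 0.0286), or 0.34 of the GFP level. Without mouse 308 it was -1.28 (edgeR adjusted p = 0.0307).

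Trp53inp1 (chr4:11156431-11174379, plus strand) encodes a nuclear protein that promotes p53 phosphorylation and autophagy. It was at 93.2, 134.5, 106.8 and 222.8 CPM in GFP mice and at 200.4, 72.6, 80.8 and 106.6 CPM in AGXT mice. Each group held 1 mouse far above its other 3, GFP mouse 315 and AGXT mouse 308, and the log2 fold change was -0.28 (SE 0.36, edgeR adjusted p = 0.661). Eda2r (chrX:97333840-97377216, minus strand), a receptor of the tumour necrosis factor family for ectodysplasin A2, was scarce at 1.99, 3.18, 3.32 and 6.13 CPM in GFP mice and 0.345, 4.33, 2.62 and 1.32 CPM in AGXT mice. It had 5 read pairs in AGXT mouse 308, and its log2 fold change of -0.75 had the largest error of the 10 genes (SE 0.58, edgeR adjusted p = 0.435).

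The stress-signal genes Sesn2 and Gdf15 overlapped between groups. Sesn2 (chr4:132492032-132510501, minus strand), encoding the leucine sensor and antioxidant protein sestrin 2, was at 17.7, 15.9, 18.9 and 27.4 CPM in GFP mice and at 19.6, 15.1, 17.98 and 14.4 CPM in AGXT mice. GFP mouse 315 alone stood above the rest, and the log2 fold change was -0.25 (SE 0.18, edgeR adjusted p = 0.41). Gdf15 (chr8:70629393-70632456, minus strand), a secreted stress hormone that lowers food intake through the brainstem receptor GFRAL, was at 273.3, 194.1, 81.6 and 210.1 CPM in GFP mice and at 219.3, 180.6, 114.0 and 152.7 CPM in AGXT mice. The lowest and the highest of the 8 values were both in GFP mice, and the log2 fold change was -0.19 (SE 0.32, edgeR adjusted p = 0.754). The receptor gene Gfral was at 0 counts in every liver.

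Per kilobase of exon, the order of mean levels in GFP livers was Gdf15 (102.5 CPM per kb), Cdkn1a (39.9), Bax (28.2), Trp53inp1 (21.5), Ccng1 (14.1), Mdm2 (11.2), Trp53 (10.5), Phlda3 (8.92), Sesn2 (5.74) and Eda2r (0.621), all on the same per-length scale. Cdkn1a, Bax, Phlda3 and Eda2r had ranges over the GFP mice that were separate from the gene above them in this order, and the other neighbours overlapped. In AGXT livers Cdkn1a stood at 20.7 CPM per kb, near Bax at 18.2 and Trp53inp1 at 17.8. Phlda3 stood at 3.02 CPM per kb there, under Sesn2 at 4.82.

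Individual mice did not move all 10 genes together. AGXT mouse 319 was below all GFP mice for 8 of the 10 genes, mice 308 and 309 for 6 each and mouse 316 for 5, and no AGXT mouse was above all GFP mice for any of them. GFP mouse 315 was the highest of all 8 mice for 8 genes. No share over all tested genes is given for these counts, so they do not show whether the pattern is particular to the 10 genes. AGXT mouse 308 was the lowest of all 8 mice for Phlda3 and Eda2r, at -3.26 and -3.41 on the log2 scale against the GFP mean, and at the same time the second highest for Trp53inp1, at 0.53. AGXT mouse 319 was lowest for Cdkn1a at -1.54, while its Bax, at -0.43, was the closest to the GFP mean among the AGXT mice.

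**Figure D2:**
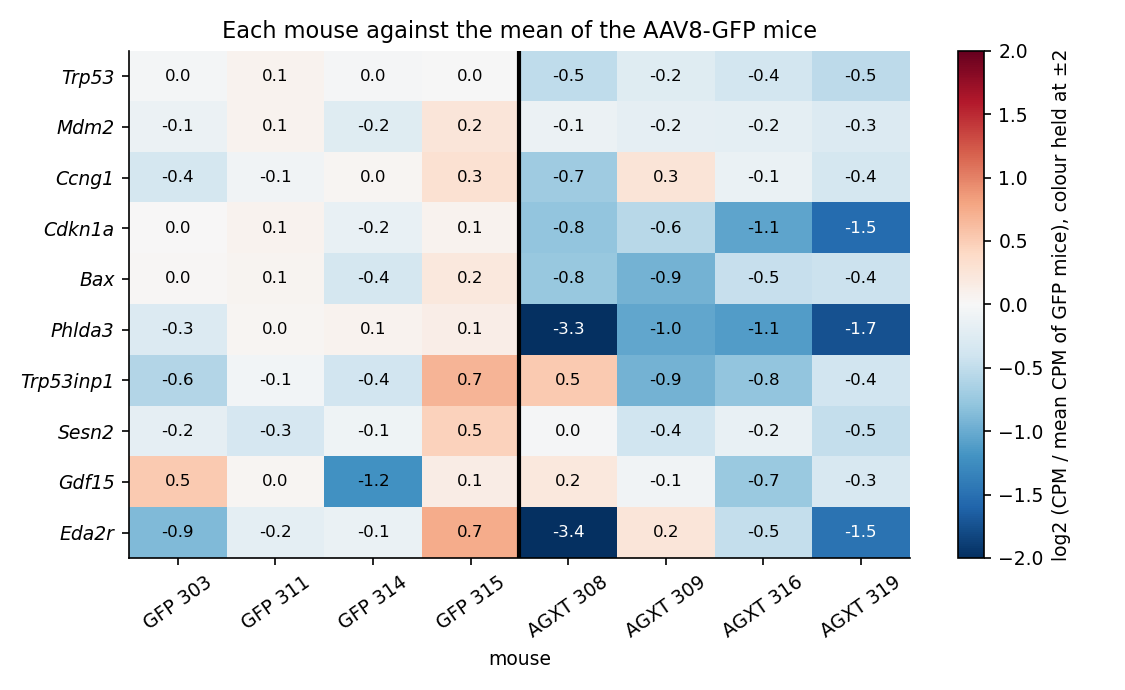
log2 of each mouse's CPM over the mean CPM of the 4 AAV8-GFP mice, for the 10 genes (rows) and 8 mice (columns), with the colour scale held at 2 in either direction. Trp53, Cdkn1a, Bax and Phlda3 are below 0 in all 4 AGXT mice, while Ccng1, Trp53inp1, Gdf15 and Eda2r have AGXT mice on both sides of 0.

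The 4 calls lay near the threshold, and 8 other tests, scalings and filters kept most of them. Cdkn1a and Phlda3 passed in 8 of 8 of these settings, with edgeR, DESeq2 or limma-voom adjusted p up to 0.0352 and 0.0476. Trp53 passed in 7 and was at 0.0594 in edgeR with no filter on low counts, and Bax passed in 7 and was at 0.0531 in limma-voom. Leaving out 1 mouse at a time in edgeR ended most calls. Cdkn1a then passed in 2 of 8 fits (adjusted p up to 0.126), Phlda3 in 2 (up to 0.148), Trp53 in 1 (up to 0.152) and Bax in 0 (up to 0.157), with the largest value of each without GFP mouse 311. Their log2 fold changes in those fits stayed negative, from -1.12 to -0.79 for Cdkn1a, -1.78 to -1.28 for Phlda3, -0.48 to -0.36 for Trp53 and -0.75 to -0.55 for Bax, and the largest unadjusted p among them was 0.00816.

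**Figure D3:**
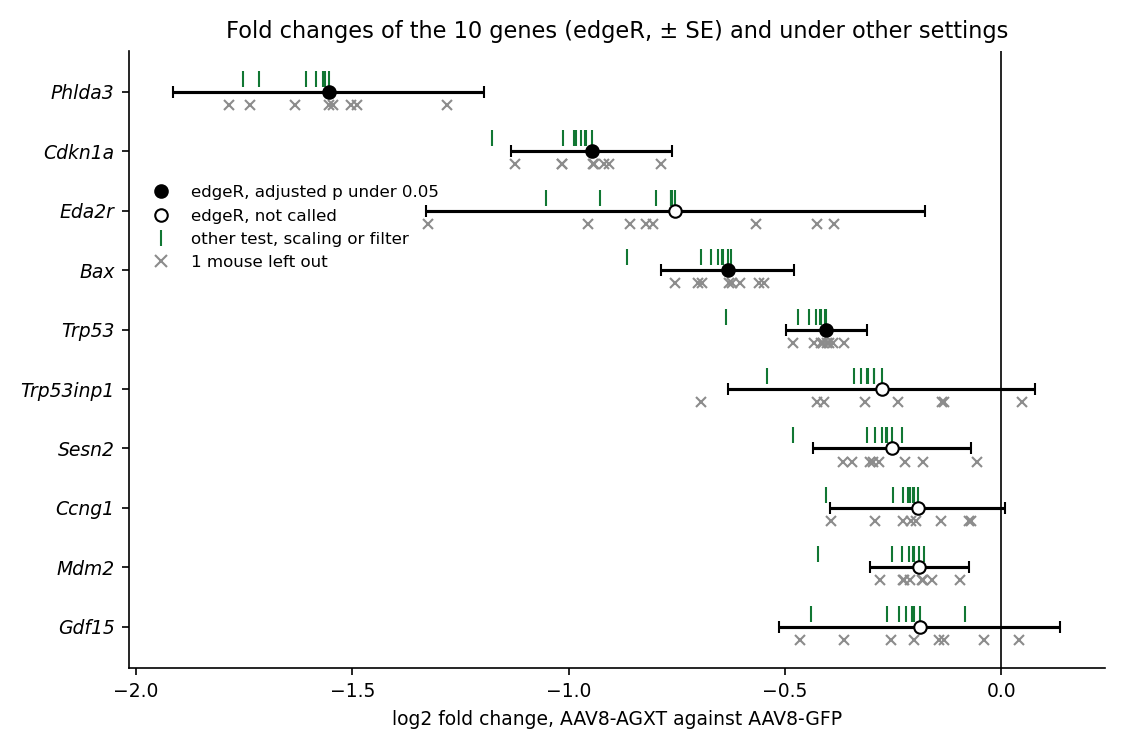
edgeR log2 fold change of each of the 10 genes, AAV8-AGXT against AAV8-GFP (horizontal axis), with its SE as the bar and filled circles for an adjusted p under 0.05. Green ticks are the other tests, scalings and filters and grey crosses the fits without 1 mouse, and the crosses reach above 0 for Trp53inp1 and Gdf15 only.

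**Figure D4:**
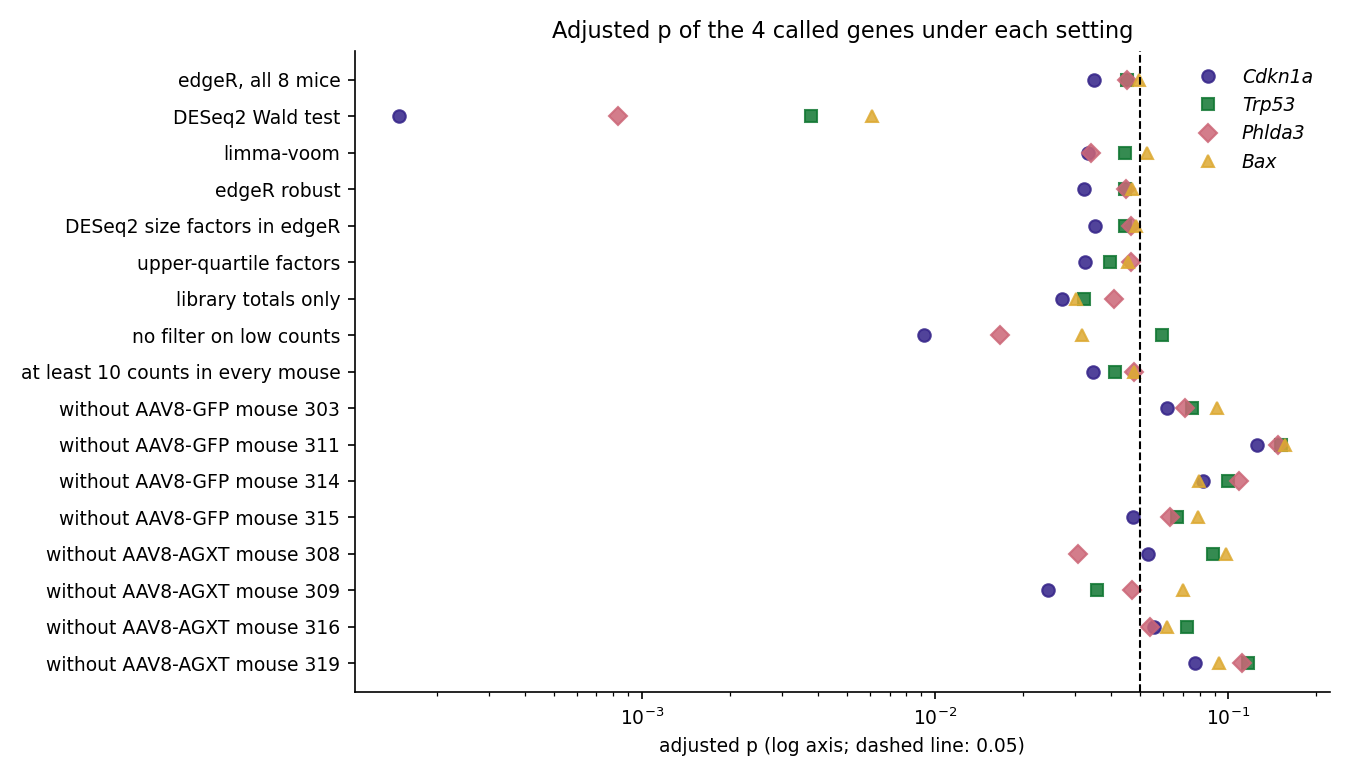
Adjusted p (log axis, dashed line at 0.05) of Cdkn1a, Trp53, Phlda3 and Bax in each test, scaling, filter and 1-mouse-out fit. The points lie right of the line for all 4 genes without GFP mice 303, 311 and 314 and without AGXT mice 316 and 319.

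Other p53 targets moved in both directions. Of 24 listed, 23 were tested, of which 1 rose and 2 fell in edgeR, with a median log2 fold change of -0.05 (-0.29 with library totals). Plk2, a stress-responsive polo-like kinase, fell from 32.2 ± 5.75 to 17.8 ± 3.39 CPM (log2 fold change -0.85, edgeR adjusted p = 0.0349). Ddit4l, an inhibitor of mTOR signalling, fell from 8.24 ± 1.73 to 2.85 ± 1.5 CPM (log2 fold change -1.53, edgeR adjusted p = 0.0451). Cdip1, a pro-apoptotic p53 target, rose from 95.6 ± 2.37 to 146.2 ± 22.9 CPM (log2 fold change 0.61, edgeR adjusted p = 0.0349), and it shares exon bases with Hmox2 on the opposite strand. The strand option of the counting is not given in the sources used here, so reads of the 2 genes may not be told apart. Of the 8 fits with 1 mouse left out, each of these 3 calls passed in 2, without GFP mouse 315 and without AGXT mouse 309. DESeq2 called 3 of the list higher and 7 lower, and 3 higher and 9 lower had an unadjusted edgeR p under 0.05.

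None of the 14 tested p53 regulators passed in edgeR, where 1 had an unadjusted p under 0.05 and was higher, and none passed in DESeq2. Their median log2 fold change was 0.07, and -0.16 with library totals. Mdm4, the partner of Mdm2 in holding p53 down, was at 74.0 ± 6.06 CPM in GFP and 71.6 ± 8.42 CPM in AGXT livers (SD, n = 4 each, log2 fold change -0.05, edgeR adjusted p = 0.819).

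Among 9 tested cell cycle inhibitors of senescence and lamins, 8 had a lower mean and 1 passed the test, in the other direction. Rbl2, which encodes the pocket protein p130 of the DREAM complex that holds cell cycle genes silent, rose from 13.1 ± 1.86 to 22.4 ± 1.41 CPM (log2 fold change 0.77, edgeR adjusted p = 0.0276). It shares exon bases with Aktip on the opposite strand, with the same limit as for Cdip1, and it passed in 5 of the 8 fits, not without GFP mouse 311 or 314 or AGXT mouse 319. The median of this list was -0.23, and -0.44 with library totals. At an unadjusted edgeR p under 0.05, 3 of its genes were lower and 1 was higher, and DESeq2 called 1 in each direction.

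Of the secretory genes linked to senescence, 16 of 19 tested had a lower mean in AGXT livers, with a median log2 fold change of -1.09. In edgeR 2 passed and both fell (0 without GFP mouse 311 or 314 or AGXT mouse 308 or 319, and 5 without AGXT mouse 309), while 12 lower and 1 higher had an unadjusted p under 0.05, DESeq2 called 10 lower and 1 higher, and edgeR without the filter called 7 lower. Cxcl2, a chemokine that attracts neutrophils, fell from 1.70 ± 0.50 to 0.564 ± 0.0554 CPM (log2 fold change -1.59, edgeR adjusted p = 0.0335). Its AGXT values, 0.514 to 0.621 CPM, lay near the 0.345 CPM of Eda2r in AGXT mouse 308, which was 5 read pairs. Few read pairs thus stand behind them, and their small SD is no measure of precision. Timp1, an inhibitor of matrix metalloproteinases, fell from 12.5 ± 4.43 to 2.53 ± 1.89 CPM (log2 fold change -2.29, edgeR adjusted p = 0.0444).

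Of 18 listed cell cycle genes that p21 and the DREAM complex hold down, 16 were tested, and 8 of them fell and 0 rose in edgeR, in the livers in which Cdkn1a fell (13 lower and 0 higher at an unadjusted p under 0.05, and 13 lower and 0 higher in DESeq2), and the median log2 fold change was -1.5. Among those not called, Ccne1, Ccne2 and Cdk2, which act at the entry into S phase, had higher means in AGXT livers, with log2 fold changes of 0.25, 0.45 and 0.05. Cdk1, the mitotic kinase, was at 4.37, 5.08, 4.75 and 5.12 CPM in GFP mice 303, 311, 314 and 315 and at 1.59, 1.20, 1.64 and 1.42 CPM in AGXT mice 308, 309, 316 and 319. The groups were far apart, with a log2 fold change of -1.72 (SE 0.19, edgeR adjusted p = 0.00992). The AGXT values lay near the 1.45 CPM of Phlda3 in AGXT mouse 308, which was 21 read pairs. Few read pairs thus stand behind them, and their narrow spread is no measure of precision. The log2 fold changes of the next by p were -2.21 for Ube2c, which loads ubiquitin for the anaphase-promoting complex, -1.55 for the kinase Plk1 and -1.5 for the transcription factor Foxm1 (edgeR adjusted p = 0.0193, 0.0276 and 0.0278). Cdk1 shares no exon bases with another gene, whereas Ube2c, Plk1 and Foxm1 do. With 1 mouse left out, the number that fell ranged from 0 to 7. Cdk1 passed in 7 of the 8 fits, failing without GFP mouse 311 (edgeR adjusted p = 0.0648). The number was 0 without GFP mouse 311, 1 without GFP mouse 314, 1 without AGXT mouse 319 and 5 without AGXT mouse 316.

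**Figure D5:**
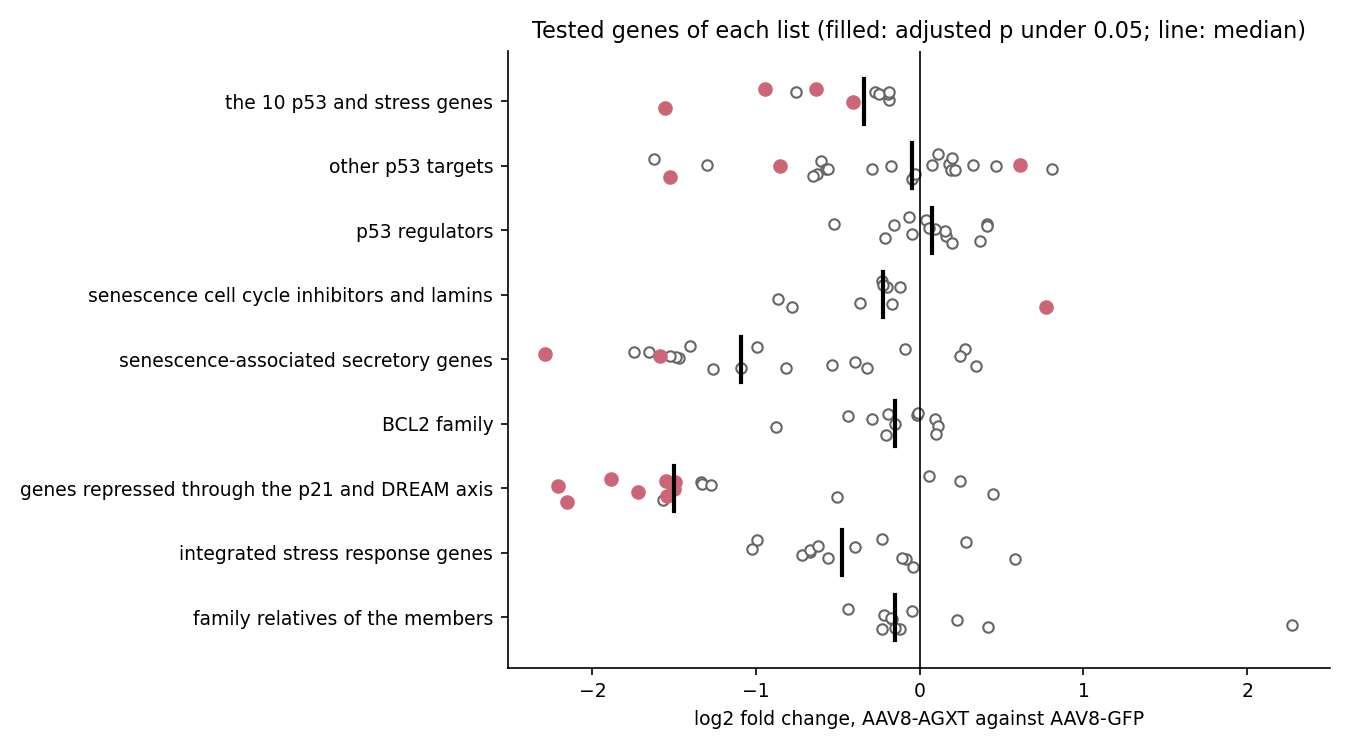
edgeR log2 fold change, AAV8-AGXT against AAV8-GFP, of every tested gene of the 10 described and of 8 related lists, with filled points for an adjusted p under 0.05 and a vertical line at the median of each list. Vertical scatter within a list is for display only, and the p21 and DREAM list holds the most filled points, 8 of 16.

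The remaining related lists gave no call in edgeR with all 8 mice, TMM and the filter. Of 11 tested BCL2 family genes beside Bax, 8 had a lower mean and the median was -0.15 (11 lower and -0.40 with library totals). In this family 2 lower had an unadjusted p under 0.05, DESeq2 called 2 lower, and edgeR called 1 lower without AGXT mouse 309 and 1 with library totals. The anti-apoptotic gene Mcl1 was at 185.2 ± 30.3 and 160.6 ± 31.9 CPM (log2 fold change -0.20, edgeR adjusted p = 0.491). Of 14 integrated stress response genes, 12 had a lower mean and the median was -0.48 (-0.73 with library totals). Among them 3 lower had an unadjusted p under 0.05, DESeq2 called 2 lower, and edgeR called 3 lower without AGXT mouse 309 and 1 with library totals. Atf4, the transcription factor at the centre of that response, was at 183.6 ± 24.3 and 170.2 ± 13.4 CPM (log2 fold change -0.11, edgeR adjusted p = 0.611). Of 11 tested family relatives of the 10 genes, some of which (Mdm4, Sesn1, Cdkn1b and Bak1 among them) are in another list too, 8 had a lower mean and the median was -0.15 (-0.40 with library totals). Of these, 2 higher and 1 lower had an unadjusted p under 0.05, DESeq2 called 1 in each direction, and edgeR called 1 higher without the filter and 1 lower with library totals. Cdkn1b, which encodes the p21 relative p27, was at 27.8 ± 4.36 and 23.7 ± 6.93 CPM (log2 fold change -0.23, edgeR adjusted p = 0.488).

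Of the marker genes of liver cell types, 3 passed in edgeR, Cyp2e1 and Cps1 of hepatocytes and Acta2 of stellate cells. All 8 hepatocyte markers had a higher mean in AGXT livers (7 of 8 with library totals), 2 of them passed (1 without GFP mouse 303, 0 without GFP mouse 311 or 314 or AGXT mouse 319, and 4 in DESeq2), and their summed level ranged from 48770 to 57760 CPM in GFP and from 64260 to 88860 CPM in AGXT mice. Summed levels of the 6 cholangiocyte markers ranged from 225.2 to 675.8 CPM in GFP and from 74.3 to 273.8 CPM in AGXT mice, with 6 lower means and 0 calls in edgeR. For these, 5 lower had an unadjusted p under 0.05, DESeq2 called 4 lower, edgeR without the filter called 2 lower, and without GFP mouse 315 it called 2 lower. Those of the 8 stellate cell markers ranged from 489.8 to 841.5 and from 246.3 to 576.2 CPM, with Acta2 called lower (in 0 of the 8 fits with 1 mouse left out) and 2 called lower in DESeq2. Of these 8 markers, 6 had a lower mean and 2 a higher mean (8 and 0 with library totals). The 2 higher were Lrat and Reln, with log2 fold changes of 0.11 and 0.22, neither called. The summed ranges were 648.8 to 1118 and 286.3 to 979.5 CPM for the 10 macrophage markers, 120.1 to 175.6 and 117.5 to 225.8 CPM for the 6 endothelial markers, and 20.3 to 32.3 and 6.84 to 21.8 CPM for the 5 neutrophil markers, of which 3 were tested. They were 8.67 to 15.3 and 2.69 to 9.91 CPM for the 6 T and NK cell markers and 3.75 to 9.12 and 3.73 to 6.42 CPM for the 4 B cell markers. Of these last 5 lists, macrophage, endothelial, neutrophil, T and NK cell and B cell markers, none gave a call in edgeR with all 8 mice and the filter. The macrophage markers moved in both directions, 6 with a lower and 4 with a higher mean (8 and 2 with library totals). Their log2 fold changes ran from -1.42 for Trem2 to 2.49 for Timd4. Without the filter edgeR called 1 macrophage marker in each direction and 1 T and NK cell marker lower, and without AGXT mouse 316 it called 1 of each lower, while DESeq2 called 1 macrophage marker higher and 2 lower, 2 T and NK cell markers lower and 1 neutrophil marker lower. No listed marker was at 0 in all mice. AGXT mouse 308, with the lowest Phlda3 and Eda2r, also had the highest hepatocyte sum and the lowest macrophage, stellate cell, cholangiocyte, T and NK cell and neutrophil sums. GFP mouse 315, highest for 8 of the 10 genes, had the lowest cholangiocyte and stellate cell sums of the GFP mice. Such sums follow their most abundant genes. Spp1 made up most of the cholangiocyte sum, at 201.1 to 611.5 CPM in GFP and 60.3 to 239.2 CPM in AGXT mice. Col1a1, Col3a1 and Dcn made up most of the stellate cell sum. Their means were 142.9, 190.7 and 212.0 CPM in GFP and 41.7, 73.7 and 191.3 CPM in AGXT livers. Alb and Apoa1 made up most of the hepatocyte sum, with means of 30000 and 11420 CPM in GFP and 37990 and 15660 CPM in AGXT livers. The part of these marker levels in the values of the 10 genes was not tested.

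The libraries held 17095433 to 28780140 read pairs that fell on genes. These made up 63.3% to 69.1% of the tallied pairs in GFP and 56.3% to 64.8% in AGXT mice, lowest in AGXT mouse 308, and pairs that did not align made up 1.32% to 3.80% and 3.78% to 6.05%. The part of this difference in the results was not tested. The mouse gene Agxt, at 163.8 ± 15.8 CPM in GFP and 305.2 ± 98.3 CPM in AGXT livers (SD, n = 4 each, log2 fold change 0.90, edgeR adjusted p = 0.0489), was higher in every AGXT mouse than in every GFP mouse, and it passed in 1 of the 8 fits with 1 mouse left out, without AGXT mouse 309. The vector carries the human sequence, and the counts do not tell its read pairs from those of the mouse gene.

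The profile of Cdkn1a over the 8 mice was closest to that of 3 other genes, by the root-mean-square difference of centred log2 CPM. These were B130034C11Rik (0.138), Gm13889 (0.162) and Chka (0.165), the last encoding choline kinase alpha, the first enzyme of phosphatidylcholine synthesis from choline. B130034C11Rik was scarce, at 0.28 to 1.11 CPM over the 8 mice, so counting error is large there. It was not called (edgeR adjusted p = 0.0848). Chka was at 273.3, 222.0, 246.7 and 236.8 CPM in GFP mice and at 142.0, 136.6, 97.6 and 80.5 CPM in AGXT mice, with AGXT mice 316 and 319 lowest in it as in Cdkn1a. Among the other 9 genes, Trp53 was nearest to Cdkn1a, at place 339 of the tested genes (0.363), and Bax followed at place 1196.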

How the data were processed

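RNA of 8 livers, 4 AAV8-GFP and 4 AAV8-AGXT, was sequenced as paired-end stranded mRNA libraries. According to their methods, the authors checked reads with FastQC 0.11.8, trimmed with Trimmomatic 0.35, mapped to GRCm38 with HISAT2 2.1.0.13 and counted on genes with HTSeq. The deposited values are raw counts per Ensembl gene, with no normalization or filter, and the strand option and overlap mode are not given in the sources used here. HTSeq's tallies of read pairs on no gene (30.9% to 43.7% of all tallied pairs) were left out of library sizes. Mice were grouped by the treatment in the labels.

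Of 52636 genes, 52489 were matched to GENCODE M21 for symbols, coordinates and exon overlap. In R 4.3.3, edgeR 4.0.16 (filterByExpr, TMM, quasi-likelihood fit and test, treatment as the only term) tested 15248 genes with Benjamini-Hochberg adjustment and a threshold of 0.05. The common biological coefficient of variation was 23.3%, so for genes with many read pairs the spread between mice, more than counting error, set the precision. This does not hold for genes of few read pairs, such as Eda2r with 5 in AGXT mouse 308. On counts simulated for this comparison with 200 changed genes among 15022, the test recovered 65.2% of those changed by 1 and 91.7% of those changed by 2 on the log2 scale. Smaller changes, such as those of Trp53 (-0.40) and Bax (-0.63), were not simulated. The simulated libraries followed the real library sizes without their TMM factors. Single genes were also tested by exact permutation of log2 CPM over 70 arrangements. Alternatives were DESeq2 1.42.0, limma-voom (limma 3.58.1), robust edgeR, DESeq2 size factors, upper-quartile factors, library totals, no filter, at least 10 counts in every mouse, and each mouse left out in turn. The last was added for the related lists after the data were seen.

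The members and the gene lists were chosen with earlier results of these data known. All 10 members are named, with up to 4 called genes per direction of each related list by smallest p, the best-known gene where none passed, and the 3 genes nearest to Cdkn1a.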

Additional observations from a re-analysis of the deposited data

Results flagged for a closer look

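In each group of 4 mice, the highest and the lowest value of 27 genes (the 10 described and the genes of the related and marker lists that passed the test) were set against the other 3 with Dixon's rule. Of 54 groups, 2 had a mouse far from the rest, and chance alone marks about 1 in 20. Neither was among the 10 genes. Foxm1, a transcription factor of the G2 phase, was at 2.85 CPM in AAV8-GFP mouse 311, with the gap to the next mouse making up 0.868 of the group's range. Cdc20, an activator of the anaphase-promoting complex, was at 0.276 CPM in AAV8-AGXT mouse 308, with a gap of 0.956 of the range. That is below the 0.345 CPM of Eda2r in the same mouse, which was 5 read pairs, so counting error is large there.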

How the results depend on the processing

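Across 8 other tests, scalings and filters the number of the 10 genes called lower was 3 or 4 and the number called higher 0. Scaling by library totals alone shifted the median log2 fold change of all genes by -0.24 and the other scalings by less than 0.1. Over all genes, 374 were higher and 290 lower in edgeR, 1068 and 1033 in DESeq2, and 144 and 857 with library totals only. Eda2r could not be fitted where at least 10 counts in every mouse were asked for.

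With 1 mouse left out at a time, 0 to 3 of the 10 genes were called lower (0 without GFP mouse 303, 311 or 314 or AGXT mouse 316 or 319, 1 without GFP mouse 315 or AGXT mouse 308, and 3 without AGXT mouse 309), while 4 or 5 of the 10 had an unadjusted edgeR p under 0.05. Over all genes 2 to 379 were then higher and 0 to 325 lower, with 2 and 0 without GFP mouse 311, where 2663 genes had an unadjusted p under 0.05. The direction turned for Trp53inp1, at 0.048 without GFP mouse 315 (lowest -0.69), and for Gdf15, at 0.0423 without GFP mouse 303 (lowest -0.46). No paired analysis was possible because the animal numbers of the labels are not shared between the groups.

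Depth limits Eda2r, with 5 read pairs in AGXT mouse 308, and Phlda3, with 21 at 1.45 CPM. It also limits called genes of the related lists that were scarcer than Phlda3 in that mouse. These were Ccnb1 (0.138 CPM), Cdc20 (0.276), Timp1 (0.483), Foxm1 (0.552), Ube2c (0.621), Cxcl2 (0.621), Plk1 (0.69), Ccnb2 (0.90) and Ddit4l (1.38). Cdk1 was just above Phlda3 there, at 1.59 CPM, and was at 1.20 CPM in AGXT mouse 309.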

Other observations

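Some genes named in senescence work were too scarce for the test and have raw counts only, summed over the 4 mice of a group. The INK4 locus genes Cdkn2a and Cdkn2b, whose products p16, p19ARF and p15 mark senescent cells, had 42 and 66 read pairs in GFP mice and 21 and 16 in AGXT mice. The p53-induced long non-coding RNA gene Trp53cor1 had 67 and 20, Il6 had 16 and 9 and Mmp3 had 32 and 10. The p53 relatives Trp63 and Trp73 had 3 and 3, and 1 and 1. Libraries of the AGXT group were shallower as a whole, and no fold change is given for these genes.

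Within each mouse, the log2 ratio of each gene to Mdm2 sets the other genes against a p53 target that was not called. This comparison was chosen after the values were seen, and 9 ratios were compared. The ratio was lower in AGXT livers by -0.81 for Cdkn1a, -1.57 for Phlda3 and -0.45 for Bax, without overlap between the groups (exact permutation p = 0.0286 each, the smallest that 70 arrangements can give, Benjamini-Hochberg adjusted p = 0.0857). For Trp53 the difference was -0.23 with overlapping groups (exact permutation p = 0.114, adjusted p = 0.257). The other 5 ratios overlapped, with exact permutation p from 0.286 to 0.943.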
